A study of Mus musculus with 4 samples.

Results

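The paired immunoglobulin-like receptors (PIR) and leukocyte immunoglobulin-like receptors (LILR) are families of Ig-domain receptors on the surface of myeloid cells. The receptors described here are Pira1, Pira2, Lilra6 and Gm14548, which are activating, and Pirb and Lilrb4a, which are inhibitory. These 6 genes, of 16739 with a value in any library, were taken by symbol and matched to the Entrez identifiers of the tables. They were selected on their measured counts in these same libraries, with the difference between WT and Trim24-deficient cells already known, and Pira1, with the largest difference among them, was one of the values in view. Their differences are therefore given as a description with no test, and a high share of higher members is no finding.

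The RNA came from tumor-associated macrophages (TAMs), sorted as CD45+ CD11b+ F4/80+ cells on day 16 from B16-F10 melanomas grown under the skin of C57BL/6 mice aged 6 to 8 weeks. B16-F10 is a mouse melanoma line. There were 2 libraries from WT mice, the littermate controls, and 2 from mice labelled Trim24-deficient, which carry floxed Trim24 (Trim24 flox/flox) and the LysM-Cre transgene. LysM-Cre is active in macrophages, monocytes and neutrophils and not in the melanoma cells or in lymphocytes, and the sources used here do not say which of these alleles the WT littermates carried. The labels do not say whether a library came from 1 mouse or from pooled mice, so the spread between libraries may be partly technical.

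The libraries held 4476122 to 5172407 expected counts, the read numbers that RSEM assigns to a gene, and 3 counts corresponded to 0.606 to 0.639 CPM (counts scaled to a common library total). Trim24 itself had expected counts of 28.84 and 10.16 in WT, against 16.11 and 2 in the Trim24-deficient-labelled libraries, so the groups overlapped. Xist had 31.2 to 53.9 expected counts in WT and 1245 to 2053 in the Trim24-deficient-labelled libraries, and the Y-linked Ddx3y had 364.6 to 491 and 2. Sex and genotype run along the same split of the libraries and cannot be told apart in any value below. Of 11302 genes that passed the filter on low counts, 42 (0.372%) were called, that is, changed more than 1.5-fold at an FDR under 0.05 by edgeR's quasi-likelihood test.

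An activating PIR or LILR has a short cytoplasmic tail and signals through the adaptor FcRγ, the product of Fcer1g, which carries an immunoreceptor tyrosine-based activation motif (ITAM) and recruits kinases such as Syk. Pirb and Lilrb4a carry immunoreceptor tyrosine-based inhibitory motifs (ITIMs) in a longer tail, which recruit the phosphatases SHP-1 and SHP-2. Activating and inhibitory members have closely similar outer domains, and MHC class I molecules are known ligands of both Pira receptors and Pirb.

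The PIR genes lie side by side in the leukocyte receptor complex, all on the minus strand of chromosome 7 in GRCm38. By GENCODE, the gene of Pirb covered chr7:3711409-3720391, that of Pira1 chr7:3731630-3739889 and that of Pira2 chr7:3836812-3845051. Gm14548 covered chr7:3884242-3898120 and Lilra6 chr7:3908280-3915503. The longest matched transcript had 15 exons in Pirb, 10 in Pira1, Pira2 and Gm14548, and 9 in Lilra6. GENCODE lists the Pira1 transcript under the name Gm15922, as a polymorphic pseudogene. Lilrb4a (also gp49B) lies apart, on the plus strand of chr10:51490956-51496611 with 9 exons, next to Lilr4b (gp49A) at chr10:51480632-51486703.

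The coding sequences of the 5 PIR genes are much alike, and how often a short read cannot be placed differs by gene. Of the 100-base stretches of a transcript, 86.5% in Pira2, 79.2% in Pira1 and 51.9% in Gm14548 occur in another gene's transcript. In Pirb it is 24.7% and in Lilra6 15.8%. Of 1973 aligned coding positions 1802 (91.3%) were identical in all 5, and the longest identical run was 83 bases. The coding sequence of Pirb has 2523 bases, so part of it lies outside this alignment. The first sequence below is a stretch of 60 bases of that run, at chr7:3716122-3716181 of the minus strand in Pirb, which no read lying within it could assign to a gene. The others are the most variable window of 60 bases, which lies at chr7:3719346-3719405 in Pirb, shown because reads here can tell the genes apart. Capitals mark bases that differ from Pirb.
all 5 PIR genes: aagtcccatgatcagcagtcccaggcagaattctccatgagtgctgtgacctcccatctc
Pirb: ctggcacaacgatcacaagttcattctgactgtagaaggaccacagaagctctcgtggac
Pira1 and Pira2: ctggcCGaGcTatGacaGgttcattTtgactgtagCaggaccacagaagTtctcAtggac
Gm14548: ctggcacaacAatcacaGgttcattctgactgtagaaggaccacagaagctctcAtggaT
Lilra6: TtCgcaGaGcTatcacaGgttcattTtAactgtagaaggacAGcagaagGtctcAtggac

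Even in this window Pira1 (chr7:3738883-3738942) and Pira2 (chr7:3844045-3844104) had the same 60 bases, with 10 differences from Pirb. Gm14548 (chr7:3897105-3897164) had 4 differences and Lilra6 (chr7:3914498-3914557) had 12. Over their whole transcripts Pira1 and Pira2 differed at 17 of 3462 aligned bases (99.5% identity). Pirb shared 97.3% of aligned bases with Gm14548 and 96.6% with Pira1.

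**Figure D1:**
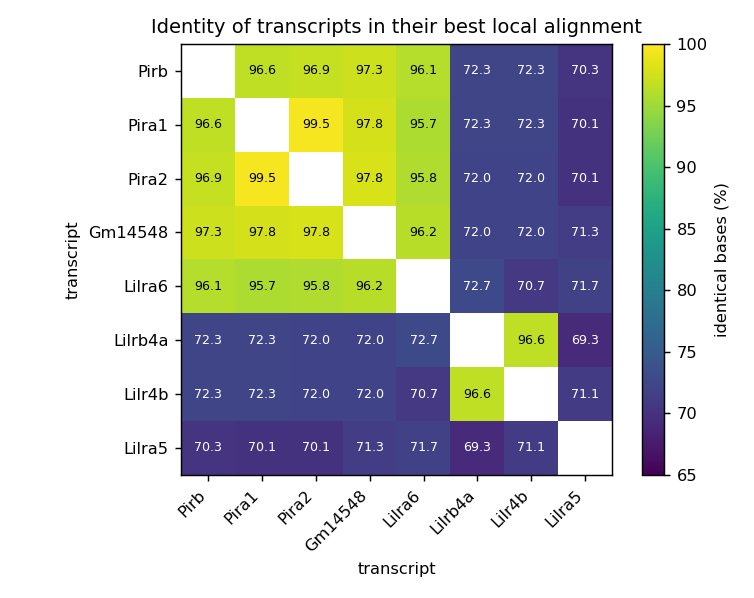
Percent identity of GENCODE transcripts in the best local alignment of each pair, with transcripts on both axes and the value printed in each cell. The 5 PIR genes form a block at 95.7% or more, Lilrb4a and Lilr4b share 96.6%, and PIR genes share about 70% to 73% with the other LILR genes.

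The 6 members differed widely in level. In every library the order by FPKM, which is scaled to transcript length and library size, was Lilrb4a, Pirb, Pira2, Gm14548, Lilra6 and Pira1. No neighbours in this order overlapped within a group.

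Lilrb4a, an inhibitory receptor of macrophages and mast cells, was the most abundant. Its FPKM was 457 and 528 in WT (replicates 1 and 2 in turn), and 611 and 608 in Trim24-deficient-labelled replicates 1 and 2. Both of the latter lay above both WT libraries, by a margin close to the gap between the WT libraries. The log2 fold change was 0.46 (SE 0.20), or 1.37-fold.

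Pirb, the inhibitory partner of the PIR-A receptors, had an FPKM of 149.8 and 140.3 in WT and of 274 and 255 in the Trim24-deficient-labelled libraries. The groups did not overlap, and each group's libraries lay close together. The log2 fold change was 1.02 (SE 0.20), or 2.02-fold.

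Pira2, which encodes an activating receptor, had an FPKM of 31.1 and 24.8 in WT and of 79.4 and 69.4 in the Trim24-deficient-labelled libraries. The log2 fold change was 1.56 (SE 0.21), or 2.94-fold. Gm14548, a Pira-like gene of the same cluster, had an FPKM of 19.7 and 17.4 in WT and of 48.7 and 41.2 in the Trim24-deficient-labelled libraries, a log2 fold change of 1.42 (SE 0.20). Both genes were separated between groups, with replicate 1 the higher library in each group.

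Lilra6, also known as Pira3, had an FPKM of 6.36 and 6.50 in WT and of 17.4 and 13 in the Trim24-deficient-labelled libraries. Its log2 fold change was 1.40 (SE 0.24), or 2.63-fold. The groups did not overlap, and the WT libraries lay closer together than the others.

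Pira1, another activating receptor gene, was near the floor of detection in WT. Its expected count was 10.1 and 8.40 in WT, against 152 and 165 in the Trim24-deficient-labelled libraries, which is an FPKM of 0.60 and 0.54 against 8.86 and 9.14. The log2 fold change of the fitted counts was 4.15 (SE 0.32), or 17.7-fold, and 2.67 on the scale of log2(FPKM + 1). Pira1 ranked 7 of 11302 genes by log2 fold change, and 79.2% of the 100-base stretches of its transcript occur in the transcript of another gene.

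**Figure D2:**
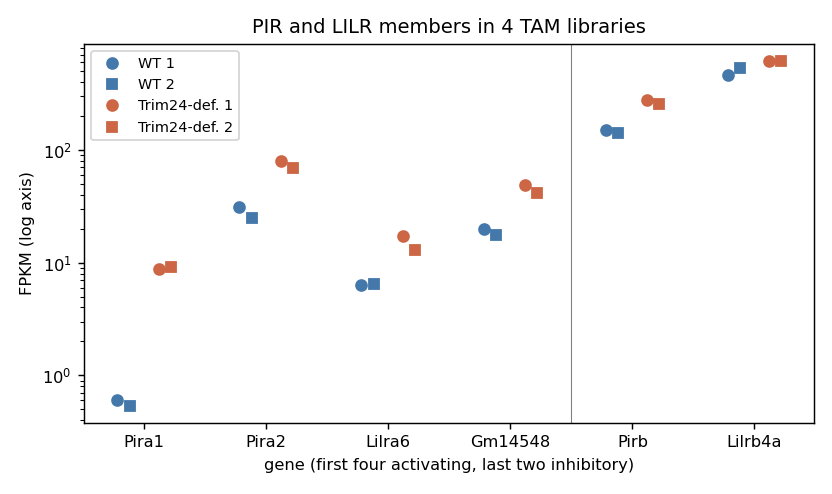
FPKM on a log axis of the 6 receptor genes in each library, with WT in blue, Trim24-deficient in orange, replicate 1 as circles and replicate 2 as squares. All 6 genes sit higher in both Trim24-deficient-labelled libraries, with the widest gap in Pira1 (0.54 to 0.60 against 8.86 to 9.14) and the narrowest in Lilrb4a (457 to 528 against 608 to 611).

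All 6 members had a log2 fold change above 0, as 49.4% of all genes tested did, and were higher in both Trim24-deficient-labelled libraries than in both WT libraries, which held for 21.5% of all genes tested. Pira1, Pira2 and Gm14548 were among the genes called higher, which were 0.292% of all genes tested (0.0796% were called lower), and Lilra6, Pirb and Lilrb4a were not called. The members were chosen with this contrast known, so nothing is read from either count.

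The expected counts themselves show how reads were divided among these paralogs. A gene with reads of its own has a whole number, whereas reads that fit several genes are split in fractions that add up to whole numbers over the genes that share them. The 9 features at issue were the 5 PIR genes and those with Entrez numbers 18724, 18727, 18729 and 18730, which had no symbol in the tables used. The set was fixed by number, as every listed feature from the Entrez number of Pira1 to that of Pirb with Gm14548 added, and not by the sums. All 36 of their values were fractional, and the sums over the 9 features were 2940.01, 2495, 7363 and 6992 in WT replicates 1 and 2 and Trim24-deficient-labelled replicates 1 and 2. Of the 511 subsets of these 9 features, only the full set was whole in all 4 libraries (within 0.011). The sums show shared reads and not what the features without a symbol encode.

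Lilrb4a shared reads with Lilr4b in the same way. Their sums were 4926, 5276, 6648 and 6700 in the same order of libraries, while neither gene was whole alone. Lilra5, an activating LILR gene, had whole counts of 36, 47, 57 and 59, and none of the 50-base stretches of its transcript occurs in another gene's transcript.

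Within the PIR set, Pirb took 67.5% and 69.1% of the reads in WT and 50.3% and 52.0% in the Trim24-deficient-labelled libraries. The feature 18724 took 1.65% and 0.75% in WT and 14.7% and 14.6% in the Trim24-deficient-labelled libraries, and Pira1 went from 0.34% in both WT libraries to 2.06% and 2.36%. The shares of Pira2 (15.5% to 18.6%), Gm14548 (6.52% to 6.95%) and Lilra6 (2.25% to 2.71%) overlapped between groups. Most of the change in the make-up of the set was thus in Pirb and in 18724, whose expected counts were 48.64, 18.82, 1083 and 1019 (log2 fold change 4.98, SE 0.34).

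The feature 18729 is annotated by GENCODE as the unprocessed pseudogene Gm15931, at chr7:4274189-4282645 on the plus strand. This match is by Entrez number alone. The GENCODE transcript has 1852 bases, whereas the feature was counted at a length of 2202 to 2825 bases. It had expected counts of 81.58, 88.88, 306 and 266 (log2 fold change 1.77, SE 0.21). The features 18727 and 18730 held at most 28.83 expected counts in any library, with log2 fold changes of -0.15 (SE 0.73) and 1.44 (SE 0.64), and that of 18727 turned positive in 3 of 12 alternatives, up to 1.41 without WT replicate 2.

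**Figure D3:**
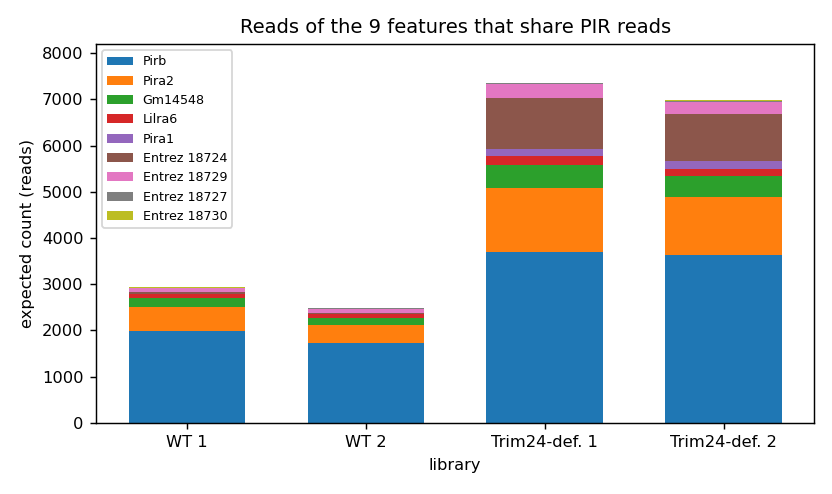
Expected counts of the 9 features that share reads, stacked for each library. The full bars reach 2940.01 and 2495 in WT and 7363 and 6992 in the Trim24-deficient-labelled libraries, the Pirb segment gains the most reads, and that of Entrez 18724 goes from 48.64 and 18.82 to 1083 and 1019.

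A sum over genes that share reads does not depend on how the reads were divided among them. Sequence is also shared outside the sums. Gm15448, which had no value in any library, holds 14.7% of the 50-base stretches of Pirb. All 100-base stretches of Lilrb4a occur in Gm49339. Whether reads of such transcripts entered the sums was not tested. The PIR set as a whole was at 594 and 520 CPM in WT and at 1568 and 1437 CPM in the Trim24-deficient-labelled libraries, with a log2 fold change of 1.43 (SE 0.22). The LILRB4 pair of Lilrb4a and Lilr4b was at 995 and 1099 CPM in WT and at 1416 and 1377 CPM, with a log2 fold change of 0.42 (SE 0.21). The higher level of PIR reads therefore does not rest on the division of reads among members, while the split between activating and inhibitory members within the set does rest on it.

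The summed activating members were at 163 and 131 CPM in WT and at 475 and 418 CPM in the Trim24-deficient-labelled libraries (log2 fold change 1.60, SE 0.21). The summed inhibitory members were at 1065 and 1095 CPM in WT and at 1745 and 1713 CPM (log2 fold change 0.68, SE 0.21). The difference of the fold changes was 0.92 on the log2 scale. It was 0.59 against Pirb alone and fell to 0.15 when Lilr4b and Lilra5 were added to the activating side, since Lilr4b had many reads and a small difference. The features of the PIR set other than Pirb together had a log2 fold change of 2.05 (SE 0.22). But they include a feature that GENCODE annotates as a pseudogene and other features without a symbol, whose sign is not known.

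The activating members together reached 0.0951 and 0.0736 of the FPKM of the inhibitory members in WT, and 0.174 and 0.154 in the Trim24-deficient-labelled libraries. By expected count, which is not scaled to length, these ratios were 0.153, 0.120, 0.272 and 0.244. Against Pirb alone the FPKM ratios were 0.386 and 0.351 in WT and 0.563 and 0.519 in the Trim24-deficient-labelled libraries. On each measure both WT libraries were lower, and in every library the listed inhibitory members, or Pirb alone, had the higher level. These ratios leave out the PIR features without a symbol, whose sign is not known. By expected count, all PIR features other than Pirb came to 0.482 and 0.447 of Pirb in WT. In the Trim24-deficient-labelled libraries they came to 0.986 and 0.924. Feature 18724 alone had an FPKM of 4.79 and 1.99 in WT and of 104 and 93.4 in the Trim24-deficient-labelled libraries.

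**Figure D4:**
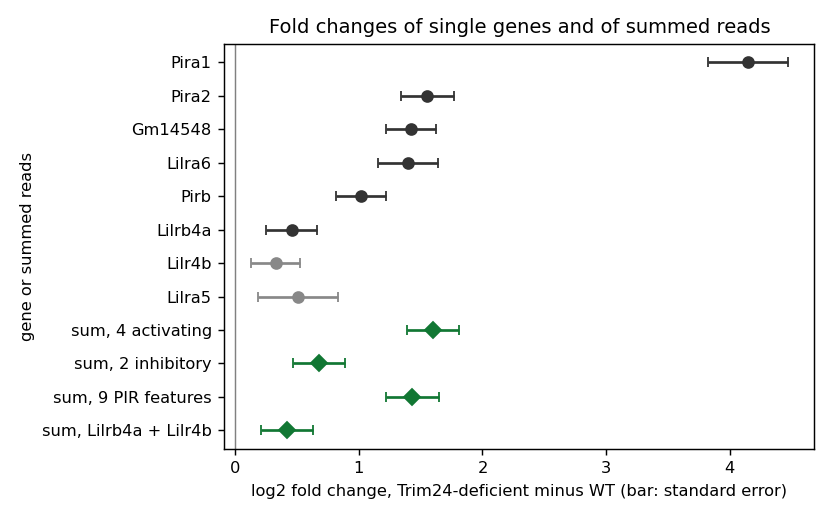
Log2 fold change of the Trim24-deficient-labelled libraries over WT, with the standard error as a bar, for the 6 members (dark circles), Lilr4b and Lilra5 (grey circles) and summed reads (green diamonds). Pira1 stands at 4.15, the other activating members lie at 1.40 to 1.56, Pirb at 1.02 and Lilrb4a at 0.46.

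The other LILR genes that could be named passed no threshold. Lilr4b, the neighbour of Lilrb4a whose product lacks ITIMs, had an FPKM of 233 and 266 in WT and of 301 and 265 in the Trim24-deficient-labelled libraries, so the groups overlapped in FPKM. In CPM, the scale of the fit, it was at 330 and 364 in WT and at 461 and 411, without overlap (log2 fold change 0.33, SE 0.20, adjusted p = 0.54 in edgeR's quasi-likelihood test). The ratio of Lilrb4a to Lilr4b FPKM was 1.96, 1.98, 2.03 and 2.29 in the same order of libraries. Lilra5 had an FPKM of 3.53 and 4.96 in WT and of 5.48 and 5.39 (log2 fold change 0.51, SE 0.32, adjusted p = 0.558 in the same test). Of 14 further family names listed, 2 could be matched to values that passed the filter, which were these. Some of the 14 name members already described, as Pira3 does Lilra6 and Gm15922 does Pira1. Names without a match are not names without reads. The features 18724 and 18729 of the PIR set were called higher, as 0.292% of all genes tested were. They share reads with members chosen on this contrast, and the calls were lost in 2 and 3 of 13 alternatives.

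The promoters of the PIR genes are as alike as their coding sequences. RefSeq promoters (GRCm38.p6, from 250 bases before to 50 after the start) were given for Pirb, Pira1, Pira2, Gm14548 and Lilra6 but not for Lilrb4a, and 5 of 6 members were matched. The promoters of Pira1 and Pira2 were identical over 272 aligned bases, and those of Pirb and Pira1 shared 97.3% of 300 bases. Each of the 5 held the letters GAGGAA, the core of the sequence bound by the myeloid factor PU.1, 3 times on either strand. The stretch from the first to the last of them, 104 bases on the minus strand, is shown because it is common to genes of both signs, with GAGGAA or its reverse complement in capitals.
Pirb, chr7:3720464-3720567: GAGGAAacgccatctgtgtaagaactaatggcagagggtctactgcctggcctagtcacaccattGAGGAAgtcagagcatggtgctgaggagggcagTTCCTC
Pira2, chr7:3845161-3845264: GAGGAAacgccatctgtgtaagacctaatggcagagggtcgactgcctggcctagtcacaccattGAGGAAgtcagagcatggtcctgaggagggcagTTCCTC
Gm14548, chr7:3898222-3898325: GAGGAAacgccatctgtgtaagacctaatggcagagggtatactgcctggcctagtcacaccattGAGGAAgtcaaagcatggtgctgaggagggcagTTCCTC
Lilra6, chr7:3915613-3915716: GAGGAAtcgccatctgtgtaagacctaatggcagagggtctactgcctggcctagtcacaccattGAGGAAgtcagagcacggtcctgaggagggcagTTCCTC

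Pira2, Gm14548 and Lilra6 differed from Pirb at 3, 3 and 4 of the 104 bases, and Pira1 had the same 104 bases as Pira2. The first copy began at -185 in Pirb and Pira1, -184 in Gm14548, -213 in Pira2 and -215 in Lilra6, counted from the annotated start. GAGGAA occurred on either strand in 28.3% of 32851 RefSeq promoters of the same length. The letters TTCNNNNGAA, the spacing preferred by Stat6, and TTCNNNGAA, that of other STAT factors, occurred in none of these 5 promoters, against 6.95% and 8.30% of all promoters. The 5 promoters are near copies and not separate observations, and no sequence beyond them was searched, so no depletion is read from this. The log2 fold changes of these genes ran from 1.02 (Pirb) to 4.15 (Pira1). The value of Pira1 rests on few WT reads and on how reads were divided between it and Pira2. Whether the promoter letters bear on these values was not tested.

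Fcer1g, the adaptor gene of the activating PIR receptors, had a far higher FPKM than the receptors. Of 22 listed genes of ITAM adaptors and proximal signalling, all were tested, 1 was called higher (0.292% of all genes tested were) and none lower. The median log2 fold change was 0.26, beside -0.01 over all genes. The called gene was Fgr, a Src family kinase of myeloid cells, with an FPKM of 14.6 and 15.5 in WT and of 32.0 and 30.2 in the Trim24-deficient-labelled libraries (log2 fold change 1.19, SE 0.18, adjusted p = 0.0331). Fcer1g had an FPKM of 3575 and 3433 in WT and of 4161 and 4325 (log2 fold change 0.42, SE 0.22, adjusted p = 0.465). The adaptor genes Tyrobp, which encodes DAP12, and Lat2 had log2 fold changes of 0.57 and 0.26 with adjusted p of 0.377 and 0.640. Fgr lost its call in 6 of 13 alternatives, among them the fits without WT replicate 1 and without WT replicate 2.

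Of 10 phosphatases and other brakes that act downstream of ITIM receptors, none was called by edgeR, 3 had an unadjusted p under 0.05, as 12.2% of all genes tested did, and the median log2 fold change was 0.15. DESeq2 also called none, and the fit without Trim24-deficient replicate 1 called Dok2 alone. Ptpn6, which encodes SHP-1, had an FPKM of 326 and 265 in WT and of 452 and 343 in the Trim24-deficient-labelled libraries (log2 fold change 0.57, SE 0.23, adjusted p = 0.373). The adaptors Dok2 (0.77, adjusted p = 0.220) and Dok3 (0.22, adjusted p = 0.645) and the lipid phosphatase gene Inpp5d (-0.06, adjusted p = 0.927) had the log2 fold changes given, and that of Inpp5d turned positive (0.027) without Trim24-deficient replicate 2.

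The ligands were not called either. Of 13 listed, 10 passed the filter, none was called by edgeR or DESeq2, 4 had an unadjusted p under 0.05 (12.2% of all genes did), and the median log2 fold change was 0.02. The MHC class I genes H2-D1, H2-K1 and B2m had log2 fold changes of 0.70, 0.61 and 0.54 with adjusted p of 0.280, 0.407 and 0.462. Apoe, which encodes a lipoprotein reported as a ligand of the human LILRB4, had an FPKM of 3812 and 5503 in WT and of 2313 and 5809, with a log2 fold change of -0.04 (SE 0.39, adjusted p = 0.981) that was 0.49 without Trim24-deficient replicate 1. The fit without that library called 1 ligand.

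Receptors of other families with the same division of labour were compared. Of 17 tested other activating myeloid receptors, 2 were called higher (0.292% of all genes tested were) and none lower. Of the 17, 16 had a log2 fold change above 0 (49.4% of all genes did), and the median was 0.73. The called genes were Tarm1, which signals through FcRγ and lies in the same receptor complex, and Clec7a, which encodes the β-glucan receptor Dectin-1. Tarm1 had an FPKM of 8.61 and 4.99 in WT and of 24.9 and 27.8 in the Trim24-deficient-labelled libraries (log2 fold change 2.09, SE 0.33, adjusted p = 0.0371).

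Clec7a had an FPKM of 30.1 and 22.3 in WT and of 83.2 and 57.9 in the Trim24-deficient-labelled libraries (log2 fold change 1.58, SE 0.24, adjusted p = 0.0349). The groups did not overlap for either gene. Both calls were lost in 6 of 13 alternatives, among them the fit without WT replicate 2, which called 0 of these receptors, whereas 8 were called without Trim24-deficient replicate 2. The most abundant others were the Fc receptor genes Fcgr3 (log2 fold change 0.66), Fcgr4 (1.08) and Fcgr1 (0.54) and the lipid receptor gene Trem2 (-0.54), with adjusted p of 0.294 to 0.433. Apart from Fcgr1, these depended on single libraries. Fcgr3 ranged from 0.08 without Trim24-deficient replicate 2 to 1.08 (called) without Trim24-deficient replicate 1, while Fcgr4 (1.48) and Trem2 (-0.93) were called without Trim24-deficient replicate 2 and Fcgr4 was 1.71 without WT replicate 1.

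Of 16 tested other inhibitory myeloid receptors, edgeR called none and DESeq2 called 1, while 5 had an unadjusted p under 0.05, beside 12.2% of all genes. Of these 16, 14 had a log2 fold change above 0 (49.4% of all genes did), and the median was 0.31. The most abundant were the Fc receptor gene Fcgr2b (0.57), the lectin gene Clec12a (0.60), Sirpa (-0.00), which binds CD47, and the lectin gene Clec4a2 (0.19), with adjusted p of 0.376 to 0.9996. Fcgr2b was -0.12 without Trim24-deficient replicate 2, and that fit called 6 of these receptors, Clec12a among them. Both lists therefore depended on single libraries in their counts, and no test compared the lists with each other.

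The genes beside the PIR cluster were also counted. Of 18 listed neighbours in the leukocyte receptor complex, 12 passed the filter, 10 had a log2 fold change above 0 (49.4% of all genes did), and the median was 0.25. Tarm1 was called higher (0.292% of all genes tested were) and none lower. The ribosomal protein gene Rps9 (0.11), the splicing factor gene Prpf31 (-0.04), the inhibitory collagen receptor gene Lair1 (0.58) and Ndufa3 (0.46), a gene of mitochondrial complex I, had adjusted p of 0.356 to 0.955. Rps9 was -0.04 with library totals in place of TMM, Prpf31 was 0.18 without WT replicate 1, Lair1 was called without Trim24-deficient replicate 2 and Ndufa3 without Trim24-deficient replicate 1.

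**Figure D5:**
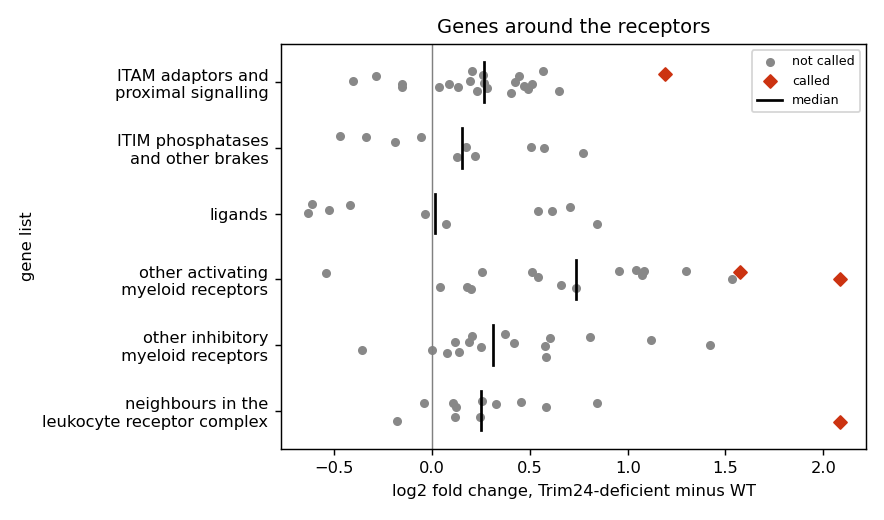
Log2 fold change of each tested gene in 6 lists around the receptors, with called genes as red diamonds, others as grey circles and the median of each list as a black bar. The medians run from 0.02 for ligands to 0.73 for other activating myeloid receptors, and the called genes are Fgr, Clec7a and Tarm1, which is in 2 lists.

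The genes whose pattern over the 4 libraries lay nearest to each member were found by the Euclidean distance of log2(CPM + 0.5) centred on the mean of the libraries. With 4 libraries in 2 groups, such likeness holds mainly the size of the difference between groups. Pira2 lay nearest to Ptger2, a prostaglandin E2 receptor gene (distance 0.144), followed by Mgarp and the complement factor gene Cfb. Gm14548 and Lilra6 both lay nearest to Hcar2, the niacin receptor gene (0.130 and 0.159), and then to Aifm2, followed by Cfb and Fbn1 in turn. Pira1 had no close neighbour, its nearest genes being A330049N07Rik (1.10), Serpinb2 and Upp1. Pirb lay nearest to Vill (0.0916), Kdm6a and Rgcc, and Lilrb4a to Txlnb (0.0156), Guca1a and Exosc3.

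The sorted cells carried macrophage markers throughout, and the summed monocyte and neutrophil markers were higher in both Trim24-deficient-labelled libraries than in both WT libraries. All 10 macrophage markers were above 0 in every library, with a summed FPKM of 6385 to 7837 in WT and of 7837 to 9169 in the Trim24-deficient-labelled libraries, and none of them was called. The 6 monocyte markers summed to 617 and 618 in WT and to 1606 and 1096 in the Trim24-deficient-labelled libraries. Single markers did not all follow their sum, as F13a1 and Vcan overlapped between groups.

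The 12 neutrophil markers summed to 114 and 129 in WT and to 194 and 484 in the Trim24-deficient-labelled libraries, and none was called. Most of the 484 was S100a8 (FPKM 305), and Cxcr2 overlapped between groups. The granule genes Mpo and Elane were at 0 in every library, and Ly6g was at 0 in both WT libraries. PIR receptors are known on monocytes and neutrophils as well as on macrophages, and the part of these cells in the receptor values was not tested. The markers of T cells (21.4 to 72.1), NK cells (7.18 to 44.4), dendritic cells (14.2 to 23.1) and B cells (38.8 to 45.7) overlapped between groups, as did those of eosinophils (3.25 to 4.72), and the B cell markers Pax5 and Blk were at 0 throughout. Mast cell, fibroblast and endothelial markers summed to at most 2.54 in any library, and the melanoma markers to 247 and 262 in WT and 158 and 216 in the Trim24-deficient-labelled libraries. In bulk RNA, a change in the number of cells of a type and a change in RNA per cell cannot be told apart.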

How the data were processed

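Reads were mapped by the authors to GRCm38/mm10 (Bowtie) and counted per gene with RSEM, per the labels and the study's methods; versions and read length were not given in the sources used here. The deposited expected count of a gene is unnormalized and can hold fractions. The deposited FPKM is scaled to transcript length and library total. A gene missing from a table was set to 0. For the tests, expected counts were rounded to whole numbers, low genes were removed (filterByExpr, 11302 of 16739 kept), and edgeR 4.0.16 (R 4.3.3) compared the genotype labels by its quasi-likelihood test after TMM scaling, with Benjamini-Hochberg adjustment over all genes tested. A gene was called when it changed more than 1.5-fold at an FDR under 0.05, the thresholds of the study. Sums over genes replaced their members in the same fit. Standard errors are those of the log2 fold change, and n is 2 libraries a group throughout. An exact permutation test cannot go below p = 0.333 here, and the adjusted p-values draw on the spread that edgeR pools over genes. Replicates were distinct libraries (chi-square over degrees of freedom 8.64 and 19.4).

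The members, gene lists and tests were chosen with earlier results of these data known. Sums of the PIR and LILRB4 sets were chosen after the fractions were seen. From each list every called gene and at most 4 more, those with the highest mean FPKM, are named, with all receptor features and the 3 nearest genes of each member, and the values of a few further genes that this rule would name are not reported here.

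Transcripts, coding sequences and positions are from GENCODE M21 and promoters from RefSeq, matched by Entrez or RefSeq identifier. The alternatives were a replicate block, DESeq2 1.42.0, scaling by library totals or upper quartiles, no filter on low counts, a minimum of 10 counts in each sample, and limma 3.58.1 on FPKM (pseudocount 1 or 0.1, keeping genes with FPKM of 1 or more in 2 samples, or unfiltered), other thresholds, and fits leaving out each library. The fits were tested on simulated data with known changes.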

Additional observations from a re-analysis of the deposited data

How the results depend on the processing

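The log2 fold changes of the 6 members and of their sums stayed above 0 under all alternatives run. The rest of this paragraph gives what moved by more than the spread between replicates, or across the threshold, and the cause was not tested. DESeq2 called 156 genes, 4 of them other activating and 1 an other inhibitory receptor, an FDR of 0.1 gave 96, and limma on log2(FPKM + 1) gave 24, or 0 without a filter (1954 at an unadjusted p under 0.05). Library totals moved the median of all genes by -0.15 and limma by -0.13 (pseudocount 1) or -0.15 (0.1), and the values of members fell with it. With library totals, Pira1 was 4.002, Pirb 0.87, Lilrb4a 0.31 and the inhibitory sum 0.53, which was 0.62 with upper quartiles. With limma and a pseudocount of 1, filtered or not, Pira1 was 2.67, Lilra6 1.11, Gm14548 1.23, Pirb 0.86, Lilrb4a 0.31, the activating sum 1.41 and the inhibitory sum 0.46. With 0.1, Pira1 was 3.76, Pirb 0.87, Lilrb4a 0.31 and the inhibitory sum 0.46. These limma fits and library totals called 0 genes among ITAM adaptors, other activating receptors and neighbours, as upper quartiles did for the last 2 lists. With Lilr4b and Lilra5 added, the activating sum was 0.83 and the difference of the fold changes 0.15, and against Pirb alone the difference was 0.59. By expected count, the ratios of activating to inhibitory level were 0.153 and 0.120 in WT and 0.272 and 0.244 in the Trim24-deficient-labelled libraries.

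Of the reads of the 6 members in the 4 libraries (WT 1 and 2, then Trim24-deficient-labelled 1 and 2), FPKM instead of expected counts gave shares of 0.0903%, 0.0752%, 0.852% and 0.917% for Pira1, 4.68%, 3.45%, 7.64% and 6.96% for Pira2, 22.5%, 19.5%, 26.4% and 25.6% for Pirb, and 68.8%, 73.6%, 58.8% and 61.1% for Lilrb4a. In the WT libraries it gave 0.957% and 0.905% for Lilra6 and 2.96% and 2.43% for Gm14548.

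Leaving out each library in turn, where a lone library is assumed to vary like the other group, gave log2 fold changes of 4.02 to 4.31 for Pira1, 1.37 to 1.78 for Pira2, 1.19 to 1.58 for Lilra6, 0.94 to 1.11 for Pirb, 0.40 to 0.53 for Lilrb4a, 1.45 to 1.78 for the activating sum and 0.75 to 1.11 for the difference. It gave 25 (without WT replicate 2), 66 (without WT replicate 1), 405 (without Trim24-deficient replicate 1) and 652 (without Trim24-deficient replicate 2) called genes, with 0 to 1 among ITAM adaptors, ITIM phosphatases and ligands, 0 to 8 among other activating and 0 to 6 among other inhibitory receptors, and 0 to 2 among neighbours.

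The replicate number as a block called 634 genes, with 1 among ITIM phosphatases, 2 ligands, 8 other activating and 3 other inhibitory receptors. Deviations of same-numbered libraries correlated at 0.17 over genes, and the 2 pairs share only a number, so this is no design pairing.

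Genes that were not called changed sign as follows. Sirpa was 0.0089 with DESeq2 and 0.0084 without a filter on low counts, Rps9 was -0.038 with library totals and -0.034 in the limma fits, and Entrez 18727 was 0.058 with limma and a pseudocount of 0.1. With a library left out, the ranges were -0.018 to 0.26 for Rps9, -0.094 to 0.094 for Sirpa, -0.22 to 0.18 for Prpf31, -0.86 to 0.49 for Apoe, -0.14 to 0.027 for Inpp5d, -0.12 to 1.05 for Fcgr2b and -0.87 to 1.41 for Entrez 18727. At 4476122 to 5172407 expected counts, values of Pira1 in WT and of 18727 and 18730 rest on few reads.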
